A study of Mus musculus with 9 samples.

Results

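The genes of the mitochondrial ribosomal proteins were examined in mouse embryonic fibroblasts of the C57BL/6 strain, a culture of connective tissue cells taken from embryos. Cells had received a lentivirus carrying p21, a lentivirus carrying p16, or the empty vector as control, and RNA was taken at day 10. Each group held 3 libraries, 9 in all. The members are the rows of the count table whose symbol starts with Mrpl or Mrps followed by a digit. There were 77 such genes of 24062 in the table. All 77 passed the filter on low counts, which kept 14572 genes. Of the 77, 50 encode proteins of the large subunit and 26 of the small subunit. Mrps36 belongs to neither, since its product is a subunit of the oxoglutarate dehydrogenase complex of the citric acid cycle. In these groups, p21 is the product of Cdkn1a and p16 of Cdkn2a, both inhibitors of cyclin-dependent kinases that can hold cells in the lasting arrest called senescence. Neither the promoter that drives p21 or p16 nor the origin of the replicates is stated in the labels, and p-values below therefore describe the spread among these libraries. Replicate 3 of each group differed from the others in sex-linked transcripts (values below), so that spread is not purely technical, although between replicates 1 and 2 it may be. In the labels the control libraries carry the status senescent as well.

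Mitochondria have ribosomes of their own, which translate the few messages of mitochondrial DNA into core subunits of the respiratory chain and of ATP synthase. The ribosomal RNAs are made in the organelle, whereas every protein of this ribosome is encoded in the nucleus, translated in the cytosol and imported. Many of these proteins descend from bacterial ribosomal proteins, and others were gained after the bacterial ancestor was taken up. Promoters of such genes are known for sites of the ETS factor GABPA, of NRF1 and of YY1.

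Promoters are shown for the members with the 3 largest called falls and the 3 largest called rises between p21 and control cells. Only members with a RefSeq entry were taken (RefSeq, build GRCm38.p6). Each runs 5′ to 3′ on the strand of its gene, from 125 bases before the annotated start to 25 bases after it, 150 bases in all. Capitals mark exact matches to the motifs searched. The first group fell.
Mrps5: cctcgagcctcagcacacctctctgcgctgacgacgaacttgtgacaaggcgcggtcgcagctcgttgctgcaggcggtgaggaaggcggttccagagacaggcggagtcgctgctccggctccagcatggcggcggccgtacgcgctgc
Mrpl40: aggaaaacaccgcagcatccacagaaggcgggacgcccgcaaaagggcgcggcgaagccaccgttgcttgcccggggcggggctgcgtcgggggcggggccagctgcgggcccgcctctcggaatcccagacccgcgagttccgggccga
Mrpl24: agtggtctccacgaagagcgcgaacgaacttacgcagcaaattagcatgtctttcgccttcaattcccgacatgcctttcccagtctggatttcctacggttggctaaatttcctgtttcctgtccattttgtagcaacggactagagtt
These windows lie at chr2:127587301-127587450 (plus strand), chr16:18876613-18876762 (minus strand) and chr3:87919419-87919568 (plus strand). The second group rose.
Mrps21: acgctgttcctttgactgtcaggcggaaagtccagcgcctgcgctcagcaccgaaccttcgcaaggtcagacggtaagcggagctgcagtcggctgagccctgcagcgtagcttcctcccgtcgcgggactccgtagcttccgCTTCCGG
Mrpl57: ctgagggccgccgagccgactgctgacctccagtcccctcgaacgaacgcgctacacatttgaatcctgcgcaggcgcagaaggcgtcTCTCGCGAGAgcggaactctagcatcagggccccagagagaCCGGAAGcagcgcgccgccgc
Mrps12: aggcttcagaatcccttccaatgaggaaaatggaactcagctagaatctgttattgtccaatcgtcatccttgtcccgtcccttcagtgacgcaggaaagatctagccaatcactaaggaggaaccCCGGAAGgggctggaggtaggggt
These lie at chr3:95871490-95871639 (minus strand), chr14:57826114-57826263 (plus strand) and chr7:28741797-28741946 (minus strand). The motifs searched, on both strands in windows of 300 bases, 250 before the start and 50 after it, were CCGGAAG (ETS factors with GABPA), GCATGCGC (NRF1), AAGATGGC (YY1), CACGTG (the E-box of MYC and other factors) and TCTCGCGA (BANP). The Mrps5, Mrpl40 and Mrpl24 windows held none of them. The Mrps21 window held CCGGAAG on the other strand. In the Mrpl57 window CCGGAAG stood beside TCTCGCGA, which matched both strands with an overlap of 6 bases. The Mrps12 window held CCGGAAG and, 199 bases before the start and outside the stretch shown, AAGATGGC on the other strand.

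Of the 77 members 68 had a promoter window. CCGGAAG occurred in 24 of them (35.3%), against 16.7% of the windows of other tested genes and 9.12% of all 27025 windows. AAGATGGC occurred in 12 (17.6%), against 4.39% of other tested genes and 2.88% of all windows. GCATGCGC occurred in 8 (11.8%), against 5.11% and 2.8% of the same sets. For CACGTG the count was 5 (7.35%, against 10.0% and 7.24%), and for TCTCGCGA it was 1 (1.47%, against 2.14% and 1.08%). At least 1 of the motifs was present in 9 of 21 windows of members lower in p21 cells, in 5 of 5 windows of members higher there and in 24 of 42 windows of the others. These matches describe letters in a window and were not tested for a relation with the fold changes.

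Library totals ran from 56864342 to 76054820 counts. Cdkn1a averaged 1130 ± 76.4 CPM in p21 cells, 419.5 ± 22.3 CPM in p16 cells and 366.2 ± 43.6 CPM in control cells (SD, n = 3 each; CPM, counts per 1000000 of a library size adjusted by TMM). Cdkn2a averaged 95.58 ± 16.7 CPM in p21 cells, 1017 ± 64.6 CPM in p16 cells and 63.08 ± 5.03 CPM in control cells. Every fibroblast marker on a list of 10 was detected, but 3 rose (30.0%) and 1 fell (10.0%) in p21 cells. Over all genes tested 19.3% rose and 20.7% fell there. Fn1 was 1.79-fold higher (adjusted p = 0.000521), S100a4 1.58-fold higher (0.0116) and Pdgfra 2.37-fold lower (0.00448). In p16 cells Fn1 was higher (adjusted p = 0.0364). The list, of which collagens and Fn1 make up most, had a summed level of 52510 to 55860 CPM in p21 libraries, 47710 to 54510 CPM in p16 libraries and 35910 to 51340 CPM in control libraries. Replicate 3 of each group stood apart in sex-linked transcripts: Xist was at 158 CPM in p21, 262 CPM in p16 and 397 CPM in control replicate 3, and at 1.34 CPM or less in the other 6 libraries. Ddx3y was at 10.8 CPM in p21, 1.26 CPM in p16 and 1.1 CPM in control replicate 3, and at 50.1 CPM or more in the other 6. Thus p21 replicate 3 was not the same as the other replicate 3 libraries in these transcripts. Counts of members called are therefore also given without every replicate 3. The kit used does not mark the strand, 23 members share exonic bases with another gene in the table, and 18 have a near-identical pseudogene copy, so that reads of these could be split or misassigned.

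Expression of the members was moderate. Mean levels over the 9 libraries ran from 9.543 to 62.93 CPM with a median of 25.12 CPM. Per kilobase of exon, Mrpl54 (52.81 CPM per kb) and Mrpl12 (41.08 CPM per kb) ranked first and next, followed by Mrpl34 at 36.96 CPM per kb and Mrpl52 at 36.5 CPM per kb. These are all genes of the large subunit, and Mrpl12 encodes the protein of the flexible stalk that binds translation factors. At the low end were Mrps35 (1.421 CPM per kb), Mrpl47 (2.159 CPM per kb), Mrpl1 (2.556 CPM per kb) and Mrpl48 (2.695 CPM per kb). Mrpl1 encodes the protein of the other stalk, at the exit site of the tRNA. With the length of the longest coding transcript in place of all exons, Mrpl12 ranked 7 and Mrpl34 ranked 11 of 77. Mrpl33, ranked 58 by all exons, then ranked 1, ahead of Mrpl52 and Mrpl54 at 2 and 3. The order at the top thus depends on the length used.

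Summed over the 77 genes, the level was 2079, 2116 and 2033 CPM in p21 replicates 1 to 3, 2111, 2083 and 2018 CPM in p16 replicates, and 2363, 2188 and 2077 CPM in control replicates. Control replicates 1 and 2 were the highest libraries, and control replicate 3 lay within the range of both other groups, so the groups overlapped. The mean was 0.94 times that of control cells in p21 cells and 0.937 times in p16 cells. Control replicate 1 was the highest of the 9 libraries for 49 of the 77 genes, and a control library was the highest for 58. Large subunit genes summed to 1394 ± 23.7 CPM in p21 cells, 1398 ± 29.4 CPM in p16 cells and 1498 ± 91.3 CPM in control cells. Small subunit genes summed to 667.4 ± 18 CPM in p21 cells, 656.8 ± 21.2 CPM in p16 cells and 695 ± 51.9 CPM in control cells. In bulk RNA, fewer cells of a type and less RNA per cell cannot be told apart.

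**Figure D1:**
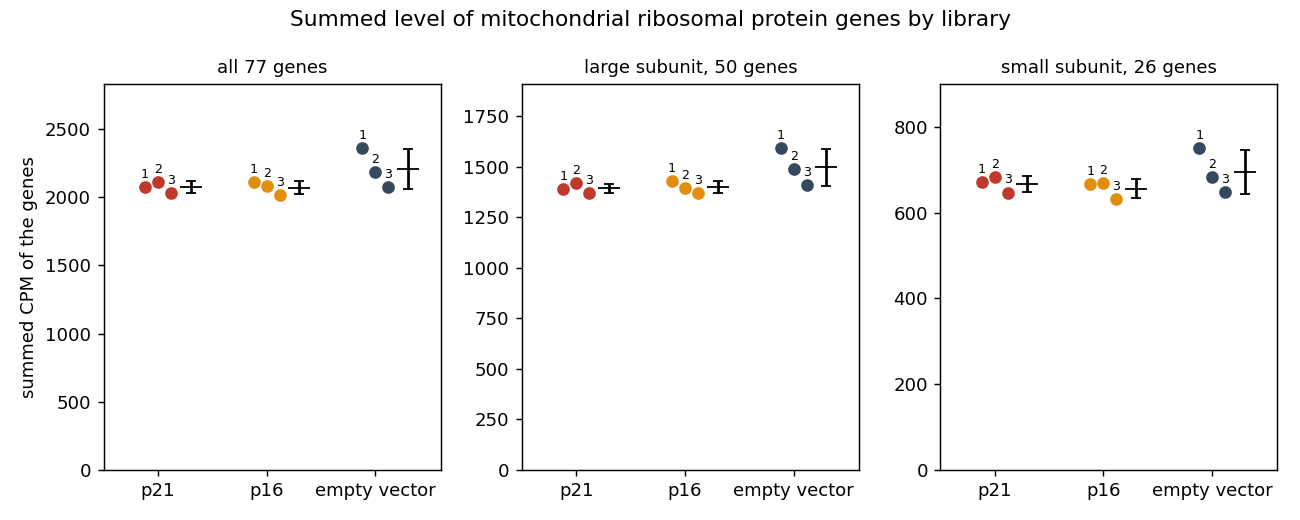
Summed CPM (vertical axis, from 0) of all 77 genes, the 50 large subunit genes and the 26 small subunit genes in each library; points are libraries with their replicate number, and bars are mean and SD of 3 libraries. Control replicate 1 is the highest library in each panel at 2363 CPM over all genes, and control replicate 3, at 2077 CPM, lies among the p21 and p16 libraries.

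The first comparison asked how p21 changed these genes relative to the empty vector. Of the 77 members 26 fell and 6 rose in p21 cells, and 45 did not pass (edgeR quasi-likelihood test, Benjamini-Hochberg adjustment over all genes, threshold 0.05). The falls were 1.11-fold to 1.37-fold and the rises 1.1-fold to 1.2-fold. Among all 14572 genes tested, 20.7% fell and 19.3% rose; among the members 33.8% fell and 7.79% rose. The median log2 fold change was -0.14 over the members and -0.01 over all genes, and 56 of the 77 values were below 0. Without control replicate 1 the median over the members was -0.08. All p21 libraries lay below all control libraries for 37 members and above them for 8, including each of the 26 and each of the 6. Over all genes the same was true of 25.7% and 24.0%. The number lower was 13 without p21 replicate 1, 15 without p21 replicate 2, 17 without control replicate 1 and 17 without control replicate 2, and it was 28 without every replicate 3. The number higher was 2 without control replicate 3, 2 without p21 replicate 1, 3 without p21 replicate 2, and 4 without every replicate 3. Shares over all genes are not given for these fits with libraries left out.

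**Figure D2:**
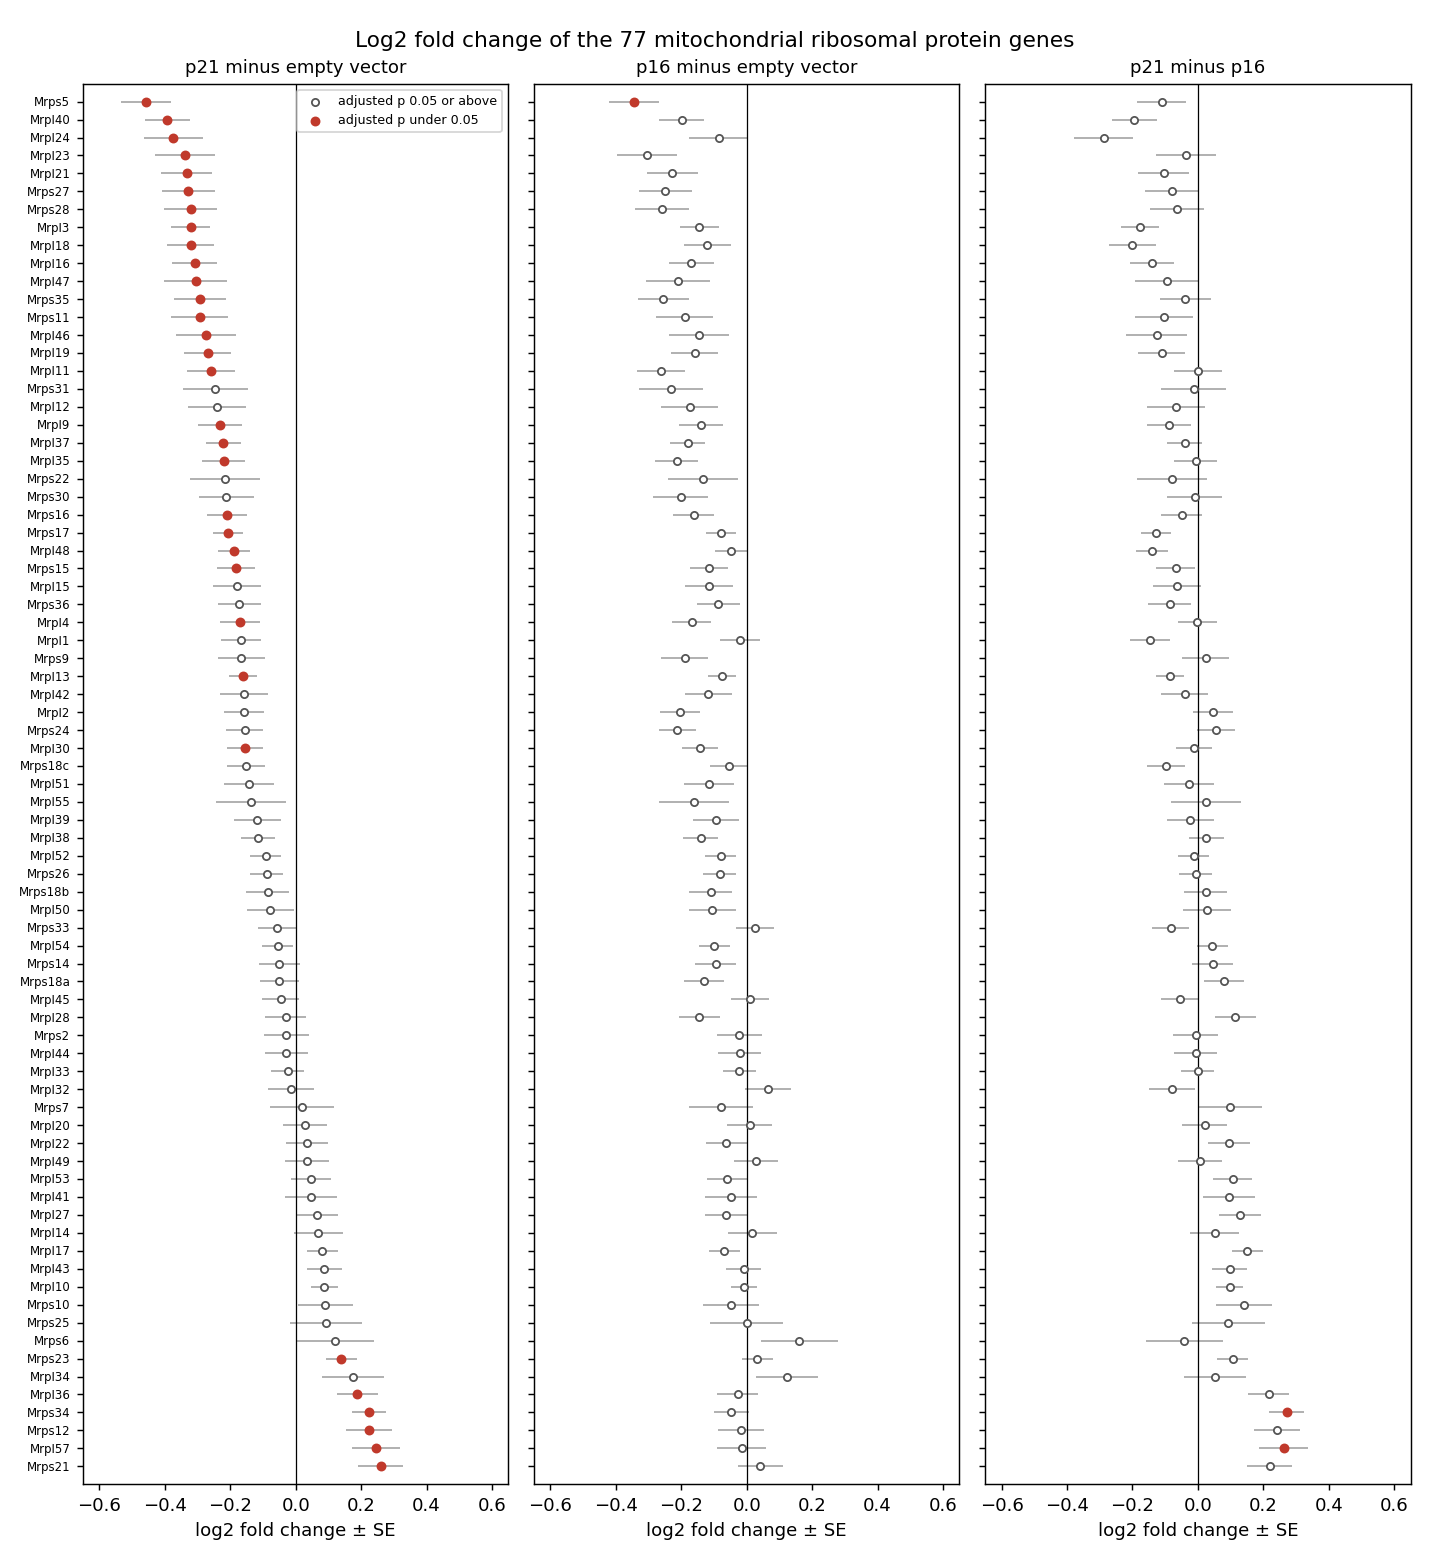
Log2 fold change with its SE (horizontal axis) of each of the 77 genes (rows, ordered by the p21 minus control value) in the 3 comparisons; filled points have an adjusted p under 0.05. Most points of the p21 minus control panel lie left of 0, with 26 filled there and 6 to the right, whereas 1 is filled for p16 minus control and 2 for p21 minus p16.

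The largest fall was in Mrps5 (chromosome 2, 127587222 to 127606829, plus strand), which encodes a small subunit protein homologous to bacterial S5, at the entry of the message. Its level was 20.28, 22.17 and 20.55 CPM in p21 replicates 1 to 3, against 31.7, 26.79 and 27.99 CPM in control replicates. Every p21 library was below every control library. Mrps5 was 1.37-fold lower (log2 fold change -0.46 ± 0.0755 SE, adjusted p = 0.00126). This gene has a near-identical pseudogene copy, so its reads could be split or misassigned. Next came Mrpl40 (chromosome 16, 18872018 to 18876862, minus strand), a large subunit protein with no bacterial counterpart. It stood at 18.87, 19.02 and 18.45 CPM in p21 libraries, against 26.59, 24.8 and 22.56 CPM in control libraries, and was 1.31-fold lower (-0.39 ± 0.0685 SE, adjusted p = 0.00169). The p21 libraries were close together, and the lowest control library was still above them.

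Mrpl24 and Mrpl23 encode homologs of bacterial proteins that sit around the exit of the peptide tunnel. Mrpl24 (chromosome 3, 87919506 to 87923672, plus strand) had 13.52, 11.6 and 13.62 CPM in p21 libraries, against 17.3, 16.49 and 16.41 CPM in control libraries (1.3-fold lower, adjusted p = 0.00938). The groups were apart, although 26.3% of its exonic bases overlap another gene, Rrnad1, which did not pass (adjusted p = 0.118). Mrpl23 (chromosome 7, 142532686 to 142540747, plus strand) had 13.95, 15.5 and 16.46 CPM in p21 libraries, against 17.66, 19.52 and 20.88 CPM in control libraries (1.27-fold lower, adjusted p = 0.0153). Its groups came within little more than 1 CPM of each other, and the call did not hold without control replicate 2 (adjusted p = 0.0506), control replicate 3 (0.054) or p21 replicate 1 (0.074).

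Over all large subunit genes called lower the falls were 1.11-fold to 1.31-fold, and those named next fell by 1.14-fold to 1.25-fold. Mrpl3, whose bacterial homolog binds early in assembly and reaches towards the peptidyl transferase centre, had 37.36, 38.55 and 39.37 CPM in p21 libraries, against 52.01, 47.59 and 44.43 CPM in control libraries (1.25-fold lower, adjusted p = 0.00222). All p21 values were below all control values. Mrpl11, at the base of the factor-binding stalk, averaged 19.49 ± 0.629 CPM in p21 cells and 23.34 ± 2.04 CPM in control cells (1.2-fold lower, adjusted p = 0.0186). That call was lost in 4 of the fits without 1 library: without control replicate 1 (adjusted p = 0.0568), control replicate 2 (0.0575), p21 replicate 2 (0.0512) or p21 replicate 3 (0.0566). Mrpl47, of the tunnel exit, averaged 8.666 ± 0.442 CPM in p21 cells and 10.71 ± 0.992 CPM in control cells (1.24-fold lower, adjusted p = 0.032). It no longer passed without control replicate 1 (adjusted p = 0.0803), control replicate 2 (0.113), p21 replicate 1 (0.12) or p21 replicate 2 (0.0756). Of its exonic bases 24.2% overlap Actl6a, which was itself lower (log2 fold change -0.28, adjusted p = 0.0113), or Ndufb5 (-0.1, adjusted p = 0.229), so its reads cannot be fully told apart from theirs. Mrpl48, a large subunit protein not found in bacteria, averaged 20.34 ± 0.542 CPM in p21 cells and 23.16 ± 0.543 CPM in control cells (1.14-fold lower, adjusted p = 0.0131), but did not pass without p21 replicate 2 (adjusted p = 0.0583).

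The other proteins of the stalk were not called. Mrpl12 had 56.75, 61.31 and 57.37 CPM in p21 libraries, against 78.5, 66.45 and 62.36 CPM in control libraries. The p21 libraries lay below the control libraries, but control replicate 1 was far above the other controls, and the difference missed the threshold (log2 fold change -0.24 ± 0.0881 SE, adjusted p = 0.053). It passed without control replicate 3 (adjusted p = 0.0234), whereas without control replicate 1 the log2 fold change was -0.14 (adjusted p = 0.151). Mrpl10, which anchors the stalk, averaged 53.85 ± 0.561 CPM in p21 cells and 50.66 ± 1.51 CPM in control cells (adjusted p = 0.113, log2 fold change 0.09 ± 0.0406 SE). Mrpl44, a large subunit protein related to a ribonuclease, averaged 13.62 ± 0.595 CPM in p21 cells and 13.88 ± 0.572 CPM in control cells (adjusted p = 0.76). Mrpl41 averaged 15.13 ± 1.01 CPM in p21 cells and 14.63 ± 1.16 CPM in control cells (adjusted p = 0.658). Mrps30, which sits on the large subunit despite its name, averaged 22.47 ± 1.22 CPM in p21 cells and 26.03 ± 2.25 CPM in control cells (adjusted p = 0.0691, and 0.0267 without control replicate 3).

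Among the most abundant members per kilobase of exon, Mrpl54 averaged 43.44 ± 1.75 CPM in p21 cells and 45.13 ± 1.4 CPM in control cells (adjusted p = 0.388). Mrpl52 averaged 39.5 ± 1.64 CPM in p21 cells and 42.1 ± 0.438 CPM in control cells (adjusted p = 0.149). Mrpl34 averaged 23.62 ± 1.78 CPM in p21 cells and 20.9 ± 2.8 CPM in control cells (log2 fold change 0.18, adjusted p = 0.165). Its log2 fold change was 0.28 without control replicate 1 (adjusted p = 0.0295) and 0.08 without control replicate 3 (adjusted p = 0.439). Mrpl1, of the low end, had 10.25, 10.31 and 10.03 CPM in p21 libraries, against 11.53, 11.42 and 11.39 CPM in control libraries. The groups were apart and narrow, yet the difference missed the threshold (log2 fold change -0.17 ± 0.0612 SE, adjusted p = 0.0542).

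In the small subunit, Mrps28 had 16.37, 16.83 and 15.58 CPM in p21 libraries, against 21.97, 20.69 and 18.3 CPM in control libraries (1.25-fold lower, adjusted p = 0.012). Its groups did not overlap. Mrps35, a protein not found in bacteria, averaged 11.31 ± 0.732 CPM in p21 cells and 13.86 ± 1.05 CPM in control cells (1.23-fold lower, adjusted p = 0.0149). Without control replicate 3 (adjusted p = 0.0504), p21 replicate 1 (0.0554) or p21 replicate 2 (0.0625) it was not called. Mrps16, a homolog of bacterial S16, averaged 25.71 ± 1.37 CPM in p21 cells and 29.74 ± 1.65 CPM in control cells (1.16-fold lower, adjusted p = 0.0233). That call did not hold without control replicate 2 (adjusted p = 0.0621), control replicate 3 (0.076), p21 replicate 1 (0.106) or p21 replicate 2 (0.0834). Mrps7, of the head of the subunit, averaged 50.06 ± 4.82 CPM in p21 cells and 49.38 ± 5.69 CPM in control cells (adjusted p = 0.886). Mrps22 averaged 13.03 ± 0.464 CPM in p21 cells and 15.12 ± 2.34 CPM in control cells (log2 fold change -0.21, adjusted p = 0.14). It passed without control replicate 3 (adjusted p = 0.0244), and without control replicate 1 its log2 fold change was -0.09 (adjusted p = 0.452).

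Mammals keep 3 relatives of bacterial S18. Mrps18c, held to occupy the place of the bacterial protein, averaged 15.18 ± 0.497 CPM in p21 cells and 16.84 ± 0.692 CPM in control cells (adjusted p = 0.0625, log2 fold change -0.15 ± 0.0576 SE). Mrps18b averaged 40.49 ± 2.09 CPM in p21 cells and 42.99 ± 3.4 CPM in control cells (adjusted p = 0.325). Mrps18a, found on the large subunit, averaged 19.62 ± 0.959 CPM in p21 cells and 20.32 ± 0.84 CPM in control cells (adjusted p = 0.536). None of the 3 passed. Mrps36 averaged 14.38 ± 0.32 CPM in p21 cells and 16.21 ± 1.11 CPM in control cells (adjusted p = 0.0605, log2 fold change -0.17 ± 0.0654 SE, and 0.0304 without control replicate 3).

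Rises were seen in 4 small subunit genes and 2 large subunit genes. Mrps21 (chromosome 3, 95862634 to 95871519, minus strand), a homolog of bacterial S21, had 28.3, 28.76 and 26.98 CPM in p21 libraries, against 25.65, 23.36 and 21.16 CPM in control libraries. Its lowest p21 library was above its highest control library, and it was 1.2-fold higher (log2 fold change 0.26 ± 0.0695 SE, adjusted p = 0.0146). A near-identical pseudogene copy of Mrps21 exists, so its reads could be split or misassigned. Mrpl57 (chromosome 14, 57826234 to 57829296, plus strand), a large subunit protein with no bacterial counterpart, had 28.75, 27.93 and 25.51 CPM in p21 libraries, against 23.37, 25.03 and 20.92 CPM in control libraries. It was 1.19-fold higher (adjusted p = 0.0252), with p21 replicate 3 only just above control replicate 2. The call did not hold without control replicate 3 (adjusted p = 0.0637), p21 replicate 1 (0.0873) or p21 replicate 2 (0.0688).

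Mrps12, whose bacterial homolog S12 forms part of the decoding centre, had 27.51, 28.21 and 24.37 CPM in p21 libraries, against 22.72, 23.99 and 21.89 CPM in control libraries (1.17-fold higher, adjusted p = 0.0315). The groups were apart by less than 1 CPM, and the call did not hold without control replicate 1 (adjusted p = 0.0568), control replicate 3 (0.0814), p21 replicate 1 (0.0956) or p21 replicate 2 (0.105). Mrps34 (chromosome 17, 24895116 to 24897502, plus strand), a small subunit protein not found in bacteria, had 23.82, 23.44 and 23.98 CPM in p21 libraries, against 21.22, 20.11 and 19.68 CPM in control libraries (1.17-fold higher, adjusted p = 0.00822). Its groups were narrow and well apart. Of its exonic bases 77.8% overlap other genes, Mapk8ip3 and Nme3, whose log2 fold changes were -0.15 (adjusted p = 0.178) and -0.35 (adjusted p = 0.111).

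The remaining rises were in Mrpl36 and Mrps23. Mrpl36, a homolog of bacterial L36, averaged 24.13 ± 0.801 CPM in p21 cells and 21.18 ± 1.61 CPM in control cells (1.14-fold higher, adjusted p = 0.0373). It did not pass without control replicate 3 (adjusted p = 0.0888), p21 replicate 1 (0.109) or p21 replicate 3 (0.0655), nor without every replicate 3 (0.16). Mrps23 averaged 39.5 ± 0.719 CPM in p21 cells and 35.87 ± 1.85 CPM in control cells (1.1-fold higher, adjusted p = 0.0408). Without any 1 of control replicate 2 (adjusted p = 0.122), control replicate 3 (0.13), p21 replicate 1 (0.102), p21 replicate 2 (0.0681) or p21 replicate 3 (0.059) it was not called, nor without every replicate 3 (0.153).

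**Figure D3:**
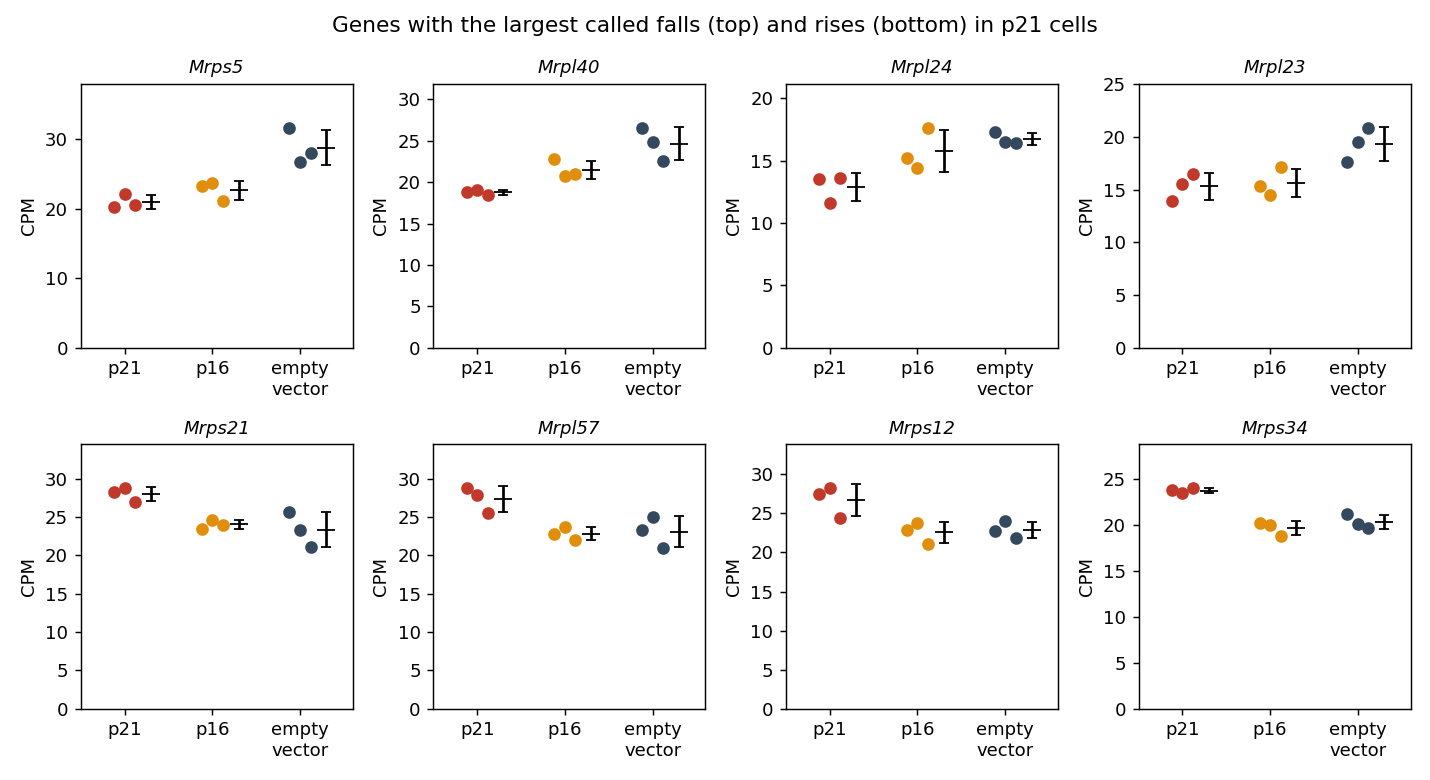
CPM (vertical axes, from 0) in each library of the 4 genes with the largest called falls (top row) and the 4 with the largest called rises (bottom row) in p21 against control cells; points are replicates 1 to 3 from left to right, and bars are mean and SD of 3 libraries. In each panel the p21 points lie wholly below (top) or wholly above (bottom) the empty vector points, as in Mrps5 with at most 22.17 CPM in p21 libraries and at least 26.79 CPM in control libraries.

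By subunit, 18 of 50 large subunit genes fell (36.0%) and 2 rose (median log2 fold change -0.14). Of 26 small subunit genes 8 fell (30.8%) and 4 rose (median -0.12). Of 48 homologs of bacterial proteins 20 fell (41.7%) and 3 rose (median -0.16). Of 28 proteins without a bacterial counterpart 6 fell (21.4%, near the 20.7% over all genes) and 3 rose (median -0.09). The 42 members with neither an overlapping gene nor a pseudogene copy had 12 falls (28.6%) and 3 rises, with a median of -0.14. Pseudogene copies exist for 5 of the 26 genes that fell (Mrps5, Mrpl21, Mrpl23, Mrps16 and Mrpl48) and for 1 that rose (Mrps21). Differences between these subgroups were not tested. The 26 genes that fell lie on 14 chromosomes and the 6 that rose on 6. Mrps11 and Mrpl46, neighbours on chromosome 7 that overlap on opposite strands, both fell (adjusted p = 0.0241 and 0.0391), and their reads cannot be told apart where they overlap. Mrpl13, Mrpl19 and Mrpl18, named after their values were seen, fell too, and each overlaps a gene that was itself lower: Mtbp (log2 fold change -0.89), Gcfc2 (-0.47) and Tcp1 (-0.18), over 4.16%, 36.0% and 10.1% of the members' exonic bases.

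Transcript length differed between these groups of genes. The longest coding transcript had a median of 1578 bases for the genes that fell, 920.5 bases for those that rose and 1197 bases for the rest. Across the 77 genes, the log2 fold change between p21 and control cells had a Spearman rho of -0.28 with that length, -0.34 with the length of all exons and 0.28 with the mean CPM. These are descriptions across genes, which share the same 9 libraries and are not independent, and the part of length in the counts of members called was not tested.

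**Figure D4:**
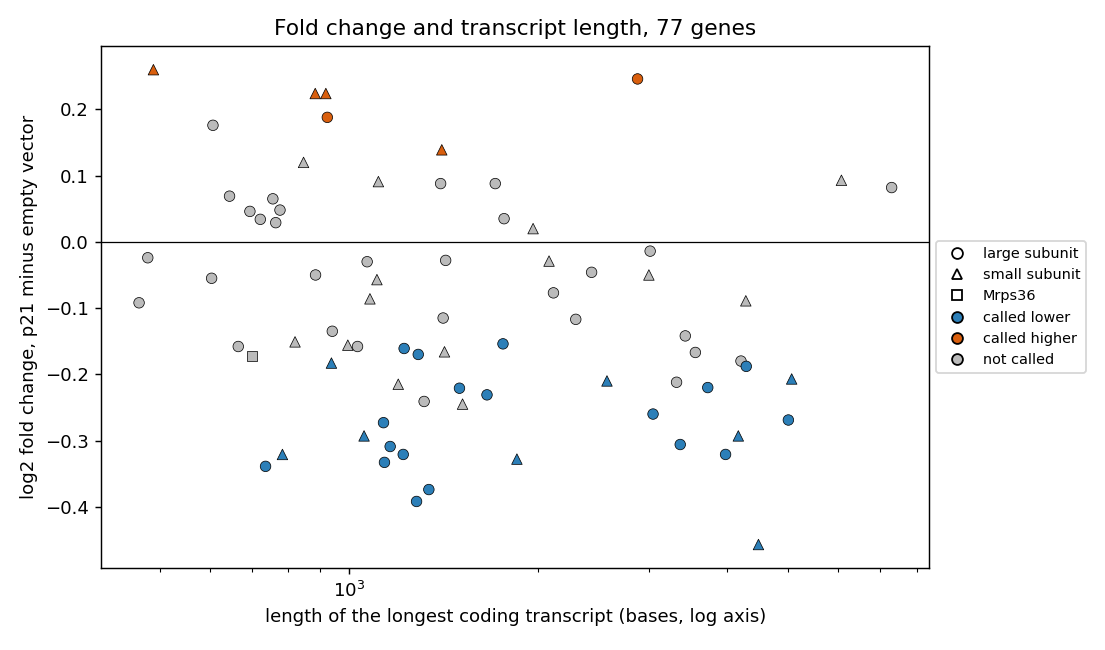
Log2 fold change of p21 minus control (vertical axis) against the length of the longest coding transcript (horizontal log axis, bases) for the 77 genes; shape gives the subunit and colour the call. Of the 6 genes called higher, Mrps21 is the shortest at 488 bases and Mrpl57 the longest at 2877 bases, and the 26 called lower run from 736 to 5061 bases.

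The p16 libraries were then set against the same control libraries. By their sample numbers, the p16 libraries form a later set, apart from the control and p21 libraries. Whether the p16 libraries were also made or sequenced as a separate batch could not be checked. Any such batch difference would enter this comparison and that of p21 with p16, and its part was not tested. Only Mrps5, which has a pseudogene copy, was called in the p16 comparison. It had 23.24, 23.69 and 21.15 CPM in p16 libraries, against 31.7, 26.79 and 27.99 CPM in control libraries, with no overlap, and was 1.27-fold lower (log2 fold change -0.35 ± 0.0753 SE, adjusted p = 0.027). That call did not hold without control replicate 1 (adjusted p = 0.0518) or without p16 replicate 1 (0.0797), 2 (0.0767) or 3 (0.0865), and without every replicate 3 (0.0932). Over all genes 3.65% were lower and 3.57% higher in p16 cells. Among the members 1.3% were lower and none of the 77 was higher by edgeR. Of the 42 members with neither a pseudogene copy nor an overlapping gene, 0 were called lower and 0 higher. At an unadjusted p under 0.05, 22 members were lower and 0 higher, against 1877 and 1710 of all 14572 genes. DESeq2 called 5 members lower and 0 higher. Shares over all genes are given for the edgeR model of 3 group means only.

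The median log2 fold change was -0.1 over the members, against -0.01 over all genes, and 67 of the 77 values were below 0. All p16 libraries lay below all control libraries for 25 members and above them for 0. Over all genes those shares were 15.1% and 13.6%. The median was -0.04 without control replicate 1. Without every replicate 3, 0 members were lower and 0 higher. With the replicate number as a block 13 members were lower and 0 higher. Between p16 and control libraries of the same number, deviations from the group mean correlated at 0.11 to 0.55, but p16 replicate 2 correlated more with control replicate 1 (0.3) than with control replicate 2 (0.11). Besides Mrps5 these were Mrpl23, Mrpl11, Mrps28, Mrps35, Mrps27, Mrpl21, Mrpl35, Mrps24, Mrpl2, Mrpl40, Mrps9 and Mrpl37, with folds of 1.13 to 1.27 for the 13. Mrpl11, for example, had 20.7, 19.22 and 18.55 CPM in p16 libraries, against 25.26, 23.56 and 21.2 CPM in control libraries. Those groups did not overlap, and the log2 fold change of -0.26 ± 0.0732 SE had an adjusted p of 0.0622 without the block and 0.0125 with it. Mrpl23 had 15.34, 14.54 and 17.14 CPM in p16 libraries, against 17.66, 19.52 and 20.88 CPM in control libraries (adjusted p = 0.0767 without the block and 0.0114 with it).

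The 26 genes that fell in p21 cells all had a log2 fold change below 0 in p16 cells, from -0.35 to -0.05. Both comparisons use the same control libraries, so this is no independent support. For 25 of the 26 the p16 mean lay between the p21 and the control mean, as it did for 2 of the 6 genes higher in p21 cells and for 48 of all 77. The 26 were picked for a gap between the p21 and control means, and that choice itself favours a p16 mean in between. In Mrpl40 the p16 mean was 21.49 ± 1.13 CPM, between 18.78 ± 0.293 CPM in p21 and 24.65 ± 2.02 CPM in control cells. The genes higher in p21 cells lay near the control level in p16 cells: their log2 fold changes there ran from -0.05 to 0.04.

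The third comparison, p21 against p16, tested whether the effects differed. Mrps34 and Mrpl57 were higher in p21 cells, and none of the 77 was lower by edgeR. By adjusted p, 6.19% of all genes were higher and 6.64% lower. At an unadjusted p under 0.05, 8 of the 77 were higher and 7 lower, against 2062 and 2142 of all 14572 genes. DESeq2 called 6 members higher and 1 lower. Mrps34 had 23.82, 23.44 and 23.98 CPM in p21 libraries, against 20.19, 20.05 and 18.79 CPM in p16 libraries, and was 1.21-fold higher (log2 fold change 0.27, adjusted p = 0.0116). The libraries did not overlap, but the call was lost without p21 replicate 1 (adjusted p = 0.0514) or without every replicate 3 (0.0611). Mrpl57 had 28.75, 27.93 and 25.51 CPM in p21 libraries, against 22.86, 23.66 and 22.02 CPM in p16 libraries (1.2-fold higher, adjusted p = 0.0471). That call was lost without p21 replicate 1 (adjusted p = 0.17) or 2 (0.131) and without p16 replicate 1 (0.128), 2 (0.0866) or 3 (0.131).

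Without every replicate 3, 2 members were higher, Mrpl57 and Mrps12, and 0 lower. With the replicate block 6 members were higher and 4 lower in p21 than in p16 cells. Mrps12, Mrpl36, Mrps21 and Mrpl17 joined the higher genes, and the lower ones were Mrpl24 (adjusted p = 0.0207), Mrpl18 (0.0332), Mrpl40 (0.0411) and Mrpl3 (0.0496). Mrpl24 had 13.52, 11.6 and 13.62 CPM in p21 libraries, against 15.21, 14.44 and 17.65 CPM in p16 libraries, without overlap; its adjusted p without the block was 0.0672. The median log2 fold change of the members was -0.01, the same as over all genes.

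Other genes of the mitochondrial ribosome and of its assembly were read beside the members. Over all genes, as above, 20.7% fell and 19.3% rose in p21 cells, and 3.65% fell and 3.57% rose in p16 cells. Of 6 ribosomal proteins listed under other symbols 2 fell in p21 cells. Ict1, a hydrolase built into the large subunit, averaged 15.87 ± 0.702 CPM in p21 cells and 19.49 ± 1.29 CPM in control cells (1.23-fold lower, adjusted p = 0.00536), and Chchd1 was 1.13-fold lower (adjusted p = 0.0323). Of 25 assembly factors 11 fell (44.0%) and 1 rose (median -0.19). Eral1, a GTPase that binds the small ribosomal RNA, averaged 11.36 ± 0.604 CPM in p21 cells and 16.04 ± 0.649 CPM in control cells (1.41-fold lower, adjusted p = 0.000302). Wbscr16 averaged 19.88 ± 1.47 CPM in p21 cells and 26.85 ± 1.6 CPM in control cells (adjusted p = 0.00117). Mpv17l2, the gene that rose, averaged 30.34 ± 3.17 CPM in p21 cells and 19.57 ± 3.23 CPM in control cells (1.55-fold higher, adjusted p = 0.00225). In p16 cells 2 of the 25 fell (8.0%), Wbscr16 (adjusted p = 0.0297) and Mettl17 (0.0482), and none rose at the threshold.

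Translation factors had 3 falls of 17 in p21 cells (17.6%, below the share over all genes) and 0 in p16 cells; those in p21 cells were Guf1 (adjusted p = 0.00136), Tsfm, an elongation factor gene (0.0134), and Pdf, which removes the formyl group of the first residue (0.0144). Of 17 mitochondrial tRNA synthetases 7 fell (41.2%) and 1 rose in p21 cells. In p16 cells 3 fell (17.6%, against 3.65% of all genes), namely Tars2, Aars2 and Vars2. Tars2, which charges threonine tRNA, averaged 26.87 ± 0.18 CPM in p21 cells, 27.91 ± 0.763 CPM in p16 cells and 33.19 ± 1.38 CPM in control cells (adjusted p = 0.000887 for p21 and 0.0177 for p16). Iars2, named after its values were seen as the single rise, was 1.15-fold higher in p21 cells. Of 23 genes for the expression of mitochondrial DNA 7 fell in p21 cells (30.4%) and 1, Hsd17b10, in p16 cells (4.35%, near the 3.65% over all genes). Tfam, which packages mitochondrial DNA and starts its transcription, averaged 21.23 ± 1.24 CPM in p21 cells and 26.21 ± 0.862 CPM in control cells (1.23-fold lower, adjusted p = 0.00242).

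Of 12 regulators of mitochondrial gene expression 6 fell and 2 rose in p21 cells. Nrf1 averaged 24.44 ± 1.46 CPM in p21 cells, 26.67 ± 0.819 CPM in p16 cells and 31.4 ± 1.19 CPM in control cells, and fell in both (adjusted p = 0.000981 for p21 and 0.0384 for p16). Gabpb2, a partner subunit of GABPA, averaged 26.25 ± 0.635 CPM in p21 cells, 30.88 ± 1.28 CPM in p16 cells and 39.34 ± 1.41 CPM in control cells, and also fell in both (adjusted p = 3.34e-05 and 0.0073). The other falls in p21 cells were in Pprc1 (adjusted p = 0.000604), Myc (0.00112), Gabpb1 (0.0136) and Mycn (0.0468, at 0.3519 ± 0.156 CPM in p21 cells and 0.8433 ± 0.117 CPM in control cells). Max, the partner of MYC, was 1.19-fold higher (adjusted p = 0.00239) and Esrra 1.18-fold higher (adjusted p = 0.0353). Gabpa itself averaged 65.11 ± 0.408 CPM in p21 cells and 64.87 ± 2.57 CPM in control cells (adjusted p = 0.936), and Yy1 averaged 49.59 ± 1.46 CPM in p21 cells and 50.21 ± 2.15 CPM in control cells (adjusted p = 0.782).

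Further from the ribosome, 3 of 14 genes for mitochondrial protein quality control fell and 1 rose in p21 cells; the 21.4% that fell is close to the 20.7% over all genes. Hspa9, the matrix chaperone, averaged 514.5 ± 9.68 CPM in p21 cells, 553.2 ± 10.8 CPM in p16 cells and 631.3 ± 7.18 CPM in control cells (adjusted p = 0.000311 for p21 and 0.02 for p16). The protease gene Lonp1 fell (adjusted p = 0.00343) and Spg7, of another protease, rose (adjusted p = 0.000519). Of 20 membrane and matrix genes 3 fell (15.0%) and 1 rose, with a median log2 fold change of 0 over the list; the import gene Timm50 was 1.33-fold lower (adjusted p = 0.000522), Timm44 1.18-fold lower (0.0113) and the channel gene Vdac2 1.16-fold higher (0.0209).

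Cytosolic ribosomal protein genes had 73 falls and 0 rises of 77 tested in p21 cells (94.8%, median log2 fold change -0.25). In p16 cells 33 fell (42.9%, against 3.65% of all genes). Nuclear-encoded respiratory chain genes had 4 falls and 16 rises of 78 tested in p21 cells (5.13% and 20.5%, median 0.03), and 1 fall in p16 cells; over all genes 20.7% fell and 19.3% rose in p21 cells, so the share that rose is near the background. The difference between these lists and the mitochondrial ribosomal proteins was not tested. For the cytosolic genes the summed level was 43740 to 44160 CPM in p21 libraries, 46020 to 47740 CPM in p16 libraries and 51620 to 53660 CPM in control libraries, with no overlap.

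**Figure D5:**
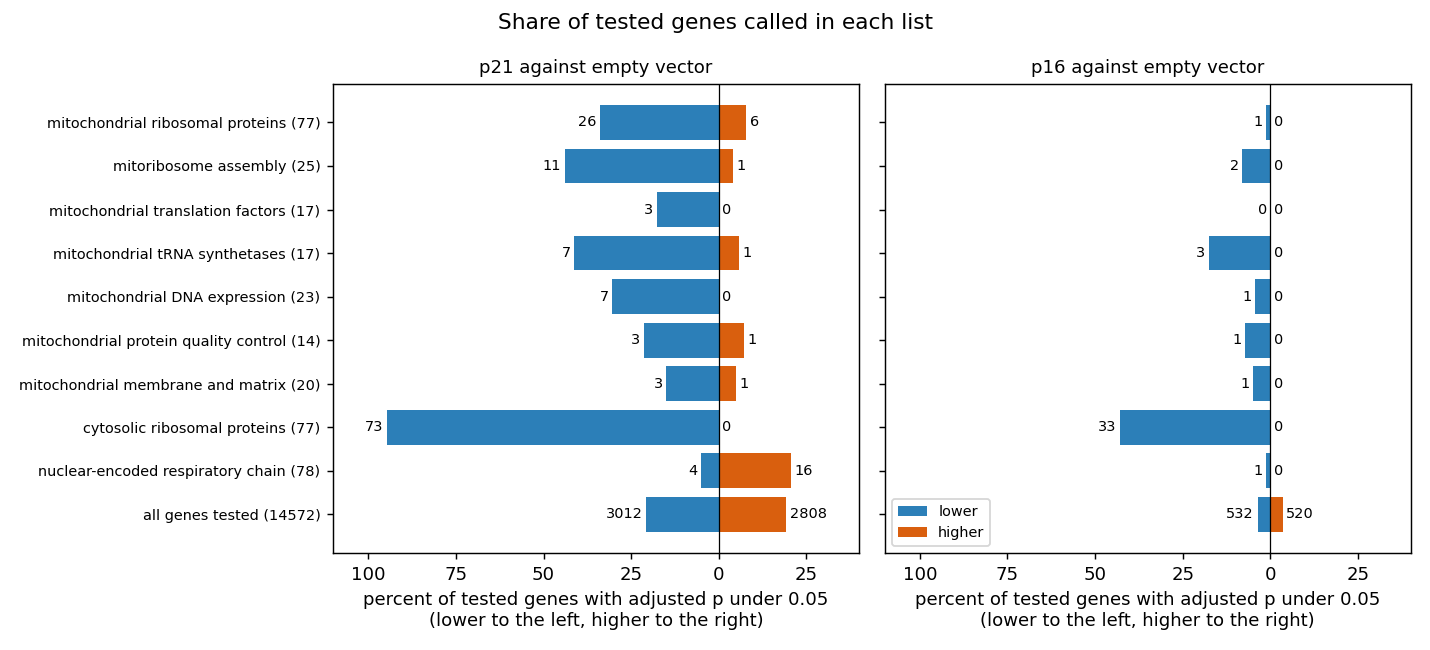
Percent of the tested genes of each list called lower (left of 0) or higher (right of 0) in p21 cells (left panel) and p16 cells (right panel) against control cells, with the number of genes at each bar and the number tested after each name. Mitochondrial ribosomal proteins show 26 lower and 6 higher of 77 in p21 cells, between the cytosolic ribosomal proteins (73 lower, 0 higher of 77) and the respiratory chain (4 lower, 16 higher of 78).

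Markers of proliferation moved with the groups. All 7 fell in p21 cells and 5 of 7 in p16 cells (71.4%), against 20.7% and 3.65% of all genes. Their summed level was 456 to 533.9 CPM in p21 libraries, 758.1 to 804.8 CPM in p16 libraries and 979.5 to 1134 CPM in control libraries. Macrophage markers also moved: 6 of 9 tested were higher in p21 cells (66.7%, against 19.3% of all genes) and 0 in p16 cells. Their sum over 11 genes, none of them at 0 in all libraries, was 22.9 to 39.9 CPM in p21 libraries, 10.49 to 13.45 CPM in p16 libraries and 12.45 to 13.64 CPM in control libraries. Skeletal muscle markers summed to 289.8 to 397.1 CPM in p21 libraries, 194.5 to 209 CPM in p16 libraries and 100.8 to 138.1 CPM in control libraries. Nearly all of that was Acta1, at 348.6 ± 55.5 CPM in p21 cells, while Myod1, which defines the lineage, averaged 0.00974 CPM there. Epithelial markers summed to 45.54 to 72.52 CPM in p21 libraries and 52.24 to 88.18 CPM in control libraries, and endothelial and adipocyte sums likewise overlapped between the groups. Of 7 endothelial markers Emcn was higher in p21 cells (2.36-fold, adjusted p = 0.0127) and in p16 cells (2.82-fold, adjusted p = 0.0252), and Erg was 5.51-fold lower in p21 cells (adjusted p = 0.00169). Both were low, with Emcn at 3.55 ± 1.54 CPM and Erg at 0.2543 ± 0.0874 CPM in p21 cells, against 1.494 ± 0.23 CPM and 1.389 ± 0.578 CPM in control cells. The part of proliferation or of other cell types in the values of the mitochondrial ribosomal proteins was not tested.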

How the data were processed

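RNA sequencing of 9 libraries was used, grouped by the sample titles. The deposited values are whole-number counts per gene symbol, with no normalisation by the authors. The submitters' processing notes name featureCounts 1.4.6 of Subread, TopHat2 2.0.14, Bowtie2 2.2.6 and build mm10. Which annotation and strand setting were used, and how multiply mapped reads were counted, is not given in the sources used here. Per the labels' protocols, libraries were made with the TruSeq RNA Library Prep Kit v2.

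Genes were kept by filterByExpr (which held 99.985% or more of every library's counts). Differences were tested in edgeR 4.0.16 (R 4.3.3) by its quasi-likelihood F test, after TMM scaling, in 1 model of 3 group means. P-values were adjusted by Benjamini-Hochberg over all 14572 genes. The SE was obtained from the log2 fold change and F (fold change over square root of F). The code was tested on simulated data. DESeq2 1.42.0, other scalings, no filter, a replicate block and leaving out each library were tried as alternatives. Libraries of a group differed beyond sampling noise (lowest chi-square per degree of freedom 10.37, highest 101.2), and each was kept as a replicate.

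Same-numbered libraries had correlated deviations from the group means: 0.25, 0.11 and 0.55 for p16 and control, and 0.16, 0.29 and 0.48 for p21 and p16. All were above the limit of 0.1. Replicate 3 stood apart in sex-linked transcripts in every group, so its correlations cannot tell pairing from that shared difference. Differently numbered libraries in those comparisons reached 0.3 (p16 replicate 2 with control replicate 1), so pairing by number is not settled there. For p21 and control the same-numbered correlations were not all above the limit. The model of group means used no pairing in any comparison, and calls are from it unless a block is named. The fit with the number as a block is an alternative.

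Positions and lengths are from GENCODE M21 (GRCm38, the assembly of mm10). A pseudogene copy matched at least 95% over 200 bases. The members and the gene lists were chosen with earlier results of these data known. Members named are the 4 largest called falls and rises of each comparison and the 4 most and 4 least abundant per kilobase of exon. A panel of known members and every member called against the majority are named too. From other lists, up to 3 called genes with the lowest adjusted p and every called regulator are named.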

Additional observations from a re-analysis of the deposited data

How the results depend on the processing

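No named gene changed sign past the threshold under any alternative. The median of the members stayed below 0 in both comparisons with control cells; between p21 and p16 cells, where it is -0.01, it was 0.006 without p21 replicate 3 and 0.001 without p16 replicate 1. Of the named members' fold changes, 358 stayed on their side of the threshold between p21 and control cells, 42 lost the call and 16 gained it; the numbers were 399, 6 and 11 between p16 and control cells and 391, 8 and 17 between p21 and p16 cells. Of the 26 members lower in p21 cells, 11 were called in every fit (Mrpl16, Mrpl18, Mrpl21, Mrpl24, Mrpl3, Mrpl37, Mrpl40, Mrps17, Mrps27, Mrps28 and Mrps5), and of the 6 higher, 2 (Mrps21 and Mrps34). The number lower was 36 with library size alone and 24 with DESeq2 size factors. It was 20 with only the 2 groups compared, which share fewer libraries for the spread. With library size alone the median log2 fold change over all genes was itself lower, at -0.046 against -0.011 in the main fit. Shares of all genes called are not given for the alternative fits, so their counts have no background beside them. Leaving out 1 library gave 13 to 29 lower and 2 to 8 higher. With only the 2 groups compared 3 were higher.

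Between p16 and control cells, the number lower was 6 with library size alone, 5 with DESeq2 and 13 with the replicate block. It was 0 with only the 2 groups compared and 0 with replicates 1 and 2 of each group. With library size alone the median over all genes was -0.032 there, against -0.01 in the main fit. Leaving out 1 library gave 0 to 3 lower and 0 to 1 higher. Between p21 and p16 cells, 6 were higher with DESeq2, 1 without the filter, 6 with the block and 4 with only the 2 groups compared; 1 was lower with DESeq2, 4 with the block and 2 with only the 2 groups compared. Leaving out 1 library gave 0 to 3 higher and 0 lower. The cause of these shifts was not tested.

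For p21 and control cells pairing by replicate number is not settled either. Same-numbered libraries correlated at 0.18, 0.03 and 0.49, while replicate 3 stood apart in sex-linked transcripts in every group. With the number as a block 34 members were lower and 6 higher. The median of the members between p21 and control cells ran from -0.17 to -0.08 when 1 library was left out. At these depths, folds near those of the smallest called changes, 1.1, lie close to what 3 libraries can separate from their spread.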
